A study of Mus musculus with 12 samples.

Results

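The Myc family and its partners were followed here at the level of DNA copy number in mouse liver tumors. The 6 genes were Myc, Mycn, Mycl1, Max, Mxi1 and Mga, found as every probe of the array that carries one of these gene names, and they were 6 of 20464 named genes measured, with 10 probes in all. The tumors came from Mdr2-KO/FVB mice, which lack the bile canalicular phospholipid transporter Mdr2 throughout the body and develop chronic liver inflammation and then liver tumors. Of the 12 tumors, 6 were post-PHx tumors (4 from males and 2 from females) of mice that had 70% of the liver removed (partial hepatectomy, PHx) at 3 or 6 months of age, not given for each tumor, and that were examined at 9 months. The other 6 were spontaneous tumors of untreated mice (2 from males at 14 months and 4 from females at 13 months). Tumor and reference tissue of each mouse carried the same knockout, so the knockout itself cancels in the ratios.

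Myc, Mycn and Mycl1 encode transcription factors that bind DNA only as a pair with the small protein Max, and that switch on genes of growth, ribosome production and metabolism. Mxi1 also pairs with Max, competes with the Myc proteins for it and silences the shared target sites, and Mga is a large Max partner that belongs to a repressive complex. Extra copies of the Myc gene are a common lesion of liver cancer, and Myc driven in hepatocytes is an established way to produce liver tumors in mice.

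Array-based comparative genomic hybridization sets the amount of tumor DNA (red dye, Cy5) against that of liver away from the tumor in the same animal (green dye, Cy3) at each probe. A log2 ratio of 0 means equal amounts, with 0 placed at the autosomal median of each array. DNA carries no cell type markers, so the labelled tissues could not be checked. Histology in the study found the tumors to be made up mostly of tumor cells, but a piece can still hold other cells, so a ratio is not a copy number. Each tumor had 1 array and there was no dye swap. After spots marked as outliers were dropped, 41081 to 42160 probes per array were left. All 120 spots of the 6 genes were well above background in both channels, and none was an outlier or saturated. Post-PHx tumors numbered 1 to 4 shared slide 1 and spontaneous tumors numbered 1 to 4 shared slide 3, while PHx5M, PHx6F, Spon5F and Spon6F shared slide 2, the only slide with both groups. Arrays of 3 spontaneous tumors stood apart in single probes scattered over the genome. On Spon3F 634 probes and on Spon1M 152 probes lay at a log2 ratio of -2 or lower, against 0 to 8 on each of the other 10 arrays, and on Spon2M 197 probes lay at 2 or higher.

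The value of a gene in a tumor was the mean log2 ratio of its own probes and of 10 flanking probes on each side. In the post-PHx tumors the 6 genes stayed near 0, with 35 of 36 gene and tumor pairs within 0.2 of it. The spontaneous tumors were more varied, with 24 of 36 pairs within 0.2. A shift of 0.2 or more was seen in 33.3% of the spontaneous pairs of the 6 genes and in 17.0% of those of all genes, and in 2.78% and 4.71% of the post-PHx pairs. These pairs are not independent, since Mycn and Max lie on the same chromosome, and a chromosome or a long part of it can move together. A gain, meaning a mean log2 ratio of at least 0.4, was reached in 2 of 72 pairs (Myc and Mycn, both in Spon1M), against 1.87% of the pairs of all genes. A loss of the same size was reached in 1 of 72 pairs (Max in Spon5F), against 1.01%. The same 3 pairs were found by calling whole regions (an interval score weighted by the error of each probe). Myc and Mycn lay in amplified regions of Spon1M, where 1.72% of all gene and tumor pairs lay in an amplified region, and Max lay in a deleted region of Spon5F, against 0.684% in a deleted one. These shares are near those of all genes.

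**Figure D1:**
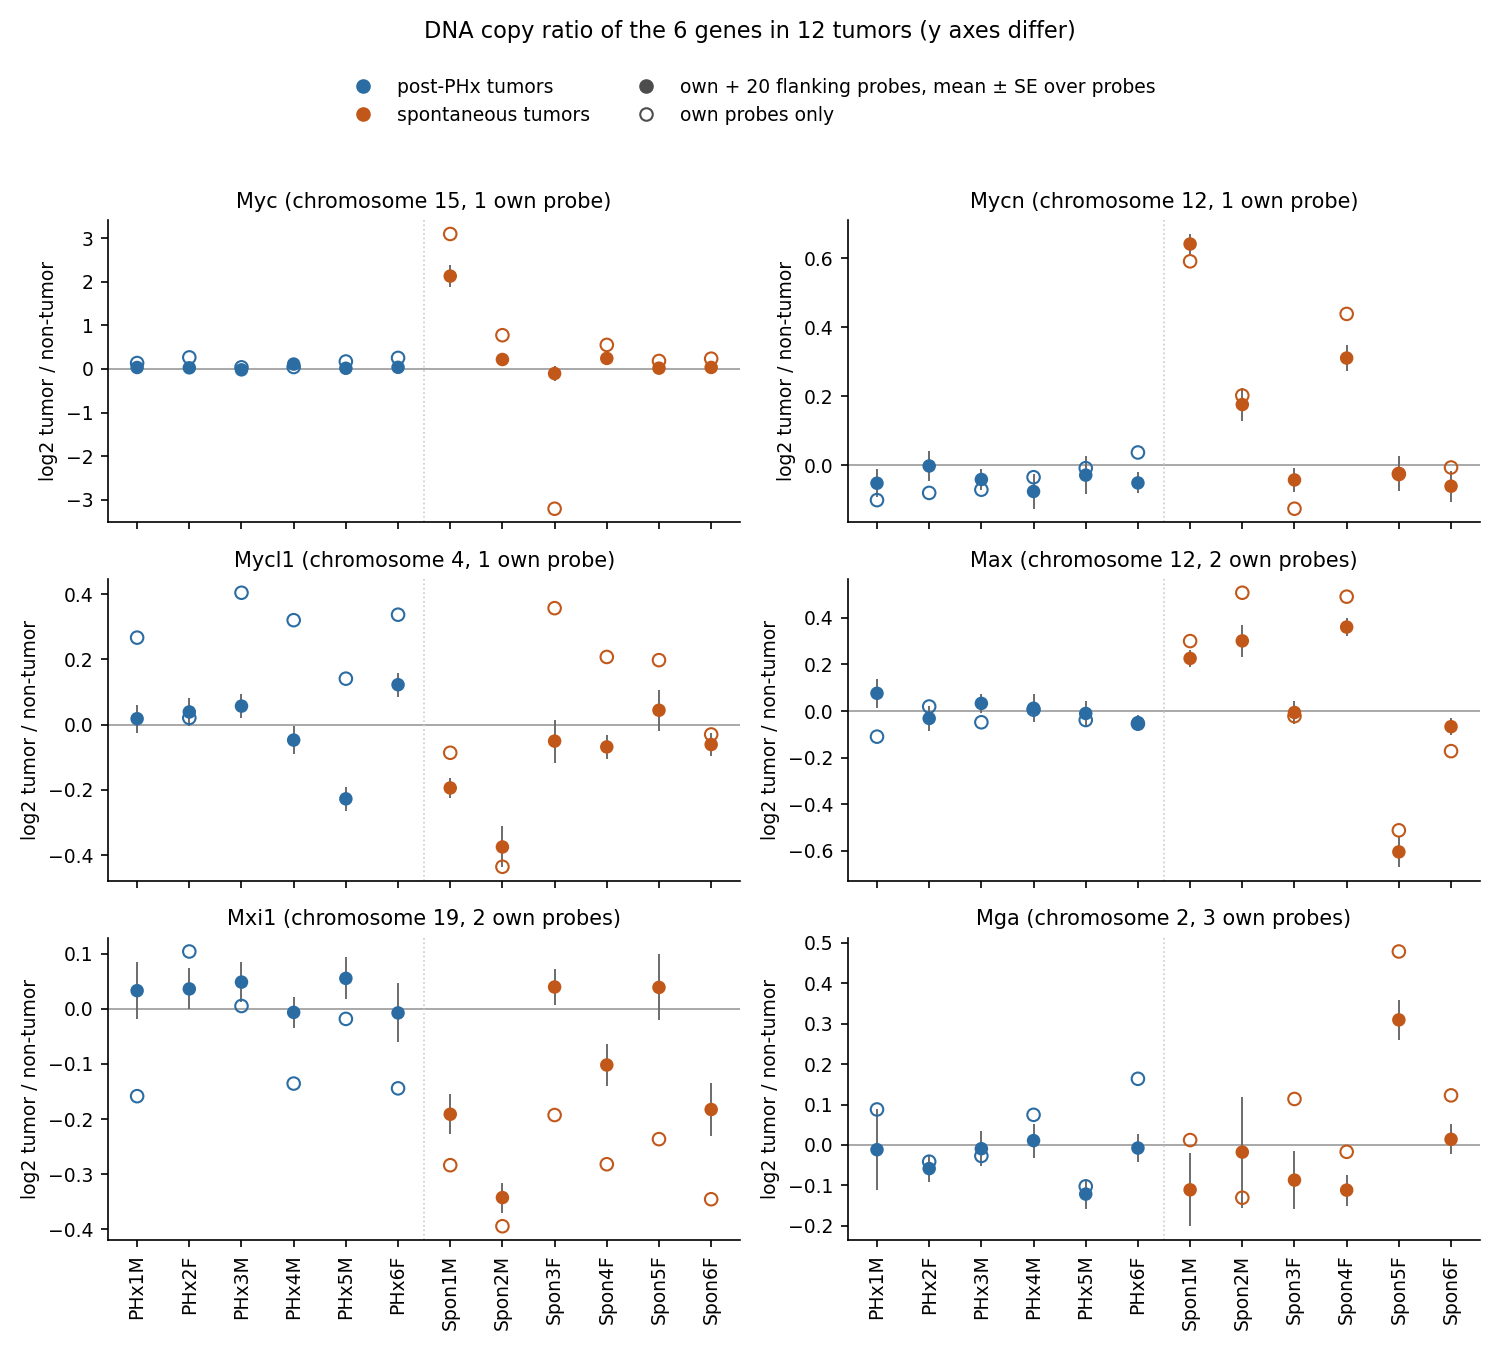
Mean log2 ratio of tumor over non-tumor liver (y axis, scale differs by panel) of the 6 genes in each of 12 tumors (x axis). Filled points are the mean of own and flanking probes with its standard error over probes, open points are the own probes alone; Myc at 2.13 in Spon1M is the highest filled point and Max at -0.60 in Spon5F the lowest.

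Myc, the founding member of the family, is represented by 1 probe at chr15:61816154-61816213 (build NCBI36, mm8). In the post-PHx tumors its mean log2 ratio ran from -0.02 in PHx3M to 0.11 in PHx4M, with a median of 0.03. In the spontaneous tumors it ran from -0.10 in Spon3F over a median of 0.13 to 2.13 in Spon1M. All tumors but Spon1M lay within 0.25 of 0, and the groups overlapped. In Spon1M the value of 2.13 (SE 0.26 over 21 probes) is a ratio of 4.37, the 15th highest of 20464 genes in that tumor.

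The amplified region around Myc in Spon1M ran over 7.93 Mb, chr15:59145297-67073624, with 71 measured probes. It had a high core of 3.06 Mb between lower shoulders. From its first to its last probe the core was chr15:61783521-64848282, and its first probe lay 0.0326 Mb before the Myc probe. The nearest shoulder probes ended at chr15:60769047 and began at chr15:65558034. No probe lay in the gaps to the core, so its edges are known only to within these gaps. The 21 measured probes of the core had a mean log2 ratio of 3.01 (SE 0.10), a ratio of 8.07. The Myc probe itself read 3.09, a ratio of 8.53. Besides Myc the core held probes named AK043790, BC113153, AK016931, 0910001A06Rik, Ddef1 (an Arf GTPase-activating protein) and Adcy8 (an adenylyl cyclase), with log2 ratios of 3.22, 3.26, 1.40, 2.78, 2.85 and 3.04. The shoulders held 50 measured probes at a mean of 0.74, a ratio of 1.67. Among their genes were Sqle, an enzyme of cholesterol synthesis, at 0.68, Trib1, a pseudokinase, at 0.99, and Ndrg1, a stress-response gene, at 0.67. All other pieces of 5 or more probes on the chromosome stood at 0, so the raised stretch was focal.

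The same core stood between -0.04 and 0.07 in the 6 post-PHx tumors. In the other 5 spontaneous tumors it stood at 0.23 in Spon2M, 0.20 in Spon4F, 0.03 in Spon5F, 0.04 in Spon6F and -0.27 in Spon3F. Single probes lowered the mean of Spon3F: Myc read -3.20 there, while the core median was 0.04 and the shoulders stood at 0.02. Spon2M and Spon4F were raised by about as much in the shoulders (0.16 and 0.18), and in Spon4F the segment that held Myc covered the whole measured chromosome at 0.17. A single probe lifted the value of PHx4M: AK016931 read 2.12 there, and without it the mean around Myc was 0.01.

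**Figure D2:**
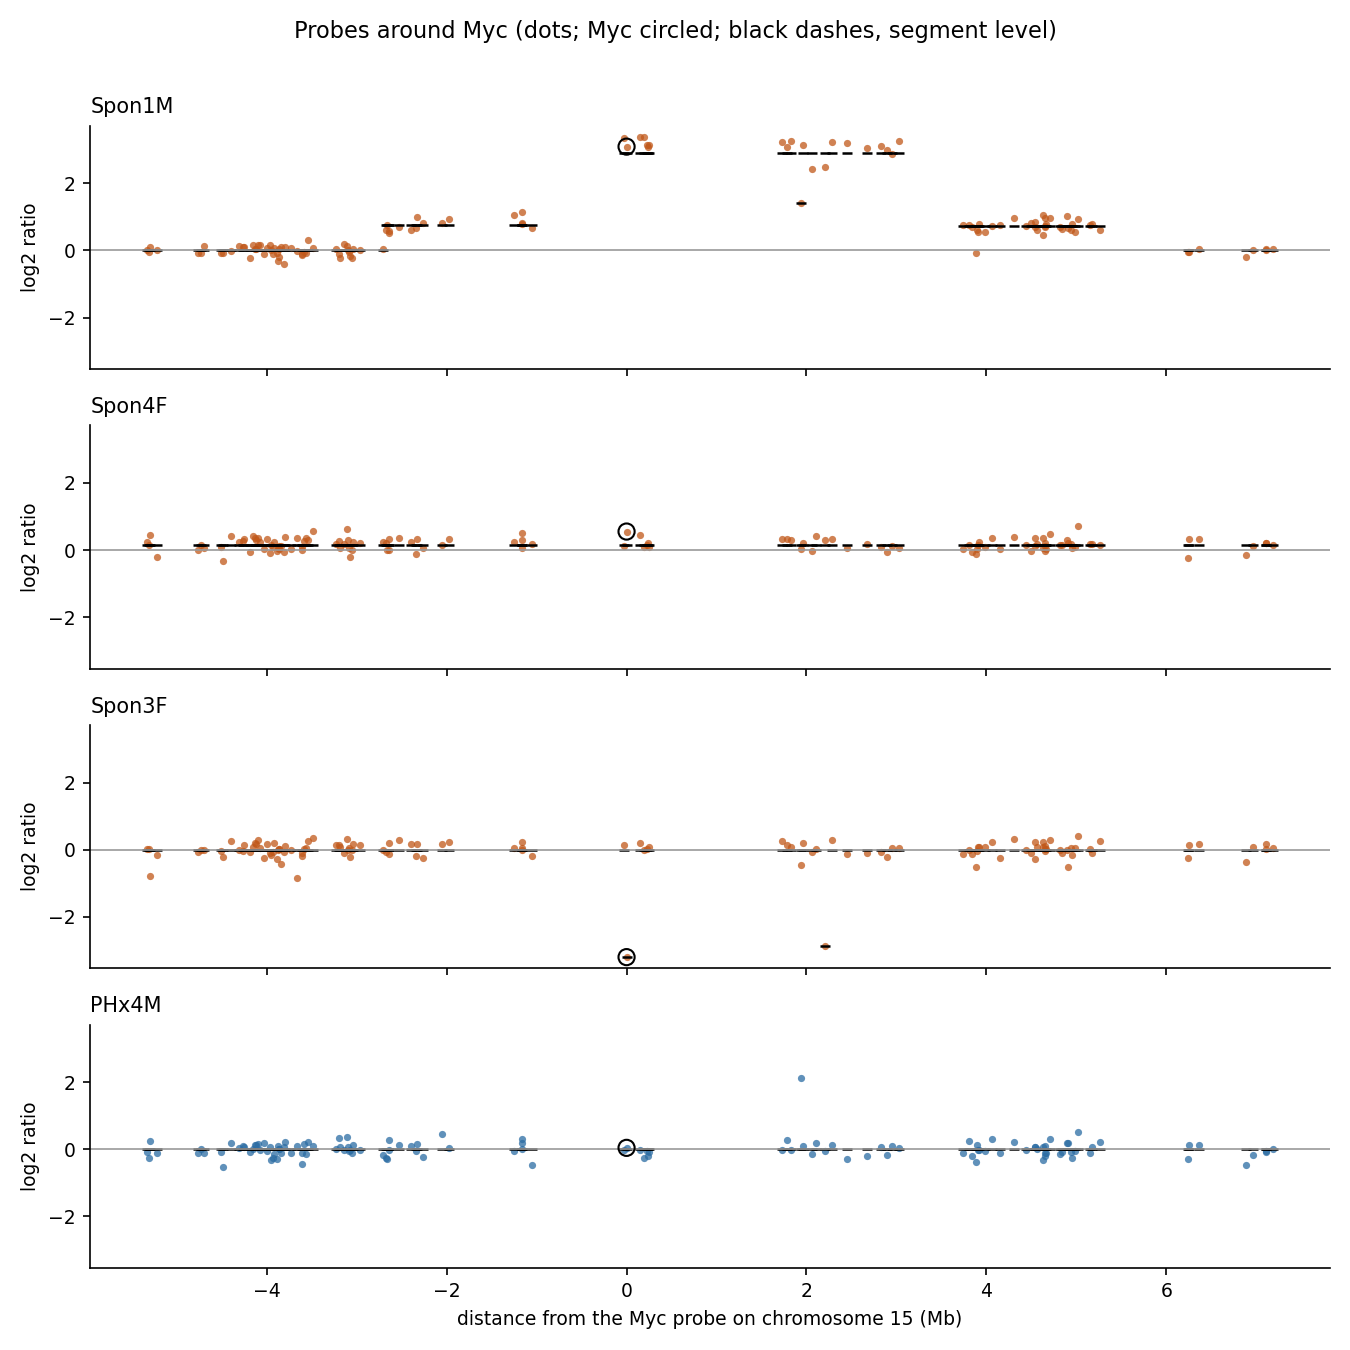
Log2 ratio of each probe (y axis) against its distance in Mb from the Myc probe on chromosome 15 (x axis) in Spon1M, Spon4F, Spon3F and PHx4M. Black dashes are segment levels and the Myc probe is circled; in Spon1M the core stands at a level of 2.90 between shoulders at 0.77 and 0.72, while in Spon3F only single probes, Myc among them, stand far below 0.

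In Spon3F the Myc probe and its surroundings disagreed. The probe read -3.20, a ratio of 0.109, while the flanking probes averaged 0.06. The deposited signals of that spot were 718 in the green and 80.0 in the red channel, and the spot was not marked as an outlier. The 634 probes that lay at -2 or lower on Spon3F, Myc included, had a median of -0.52 on Spon1M and of 0.71 on Spon2M. On Spon2M 55.0% of them stood at 0.5 or higher, against 6.71% of the other probes, and the Myc probe read 0.77 there. On Spon4F their median was 0.21, with 76 of 631 at 0.5 or higher against 1.56% of the other probes, and the Myc probe read 0.55. On Spon1M 51.0% of them stood at -0.5 or lower, against 1.67% of the other probes. In the post-PHx tumors their medians ran from -0.05 to 0.04. The part of this pattern in the Myc reading of Spon3F was not tested.

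Mycn, the family member of embryonic tissue, has 1 probe at chr12:12964272-12964331. Its values in the post-PHx tumors lay between -0.08 in PHx4M and 0.00 in PHx2F, with a median of -0.05, below 0 in 6 of 6. In the spontaneous tumors they ran from -0.06 in Spon6F over a median of 0.08 to 0.64 in Spon1M. Spon1M (0.64), Spon4F (0.31) and Spon2M (0.18) stood above every post-PHx tumor, and the other 3 lay among them. In Spon1M the called region that held Mycn was chr12:3264700-29209288, with 218 probes at a mean of 0.55, a ratio of 1.46. Its main piece stood at 0.67, and pieces at the same level went on to chr12:51158663. Within that stretch, 27.6 Mb beyond Mycn, 28 probes (chr12:40515930-42836201) stood at 2.96, close to the level of the Myc core. In Spon4F the segment with Mycn was the whole measured chromosome at 0.36, and in Spon2M the segment stood at 0.28.

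Max, the obligate partner of all Myc proteins, lies on the same chromosome as Mycn, 64.9 Mb further along, with 2 probes between chr12:77861470 and 77869350. In the post-PHx tumors it ran from -0.05 in PHx6F over a median of 0.00 to 0.08 in PHx1M. In the spontaneous tumors it ran from -0.60 in Spon5F over a median of 0.11 to 0.36 in Spon4F. Spon4F (0.36), Spon2M (0.30) and Spon1M (0.23) were above the post-PHx range, and Spon5F was far below it. In Spon5F the deleted region covered 49.6 Mb, chr12:59864966-109468692, with 802 probes at a mean of -0.50, a ratio of 0.705. Max at -0.60 (SE 0.07 over 22 probes) stood 35th from the bottom of 20464 genes in that tumor, and both of its own probes together averaged -0.51. The break between the unchanged and the deleted part lay between the 2 genes, so Mycn stood at -0.02 in the tumor in which Max was low. In Spon4F and Spon2M, by contrast, both genes were raised together with their chromosome, whose median was 0.36 and 0.27. In Spon1M the segment with Mycn stood at 0.67 and that with Max at 0.26.

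**Figure D3:**
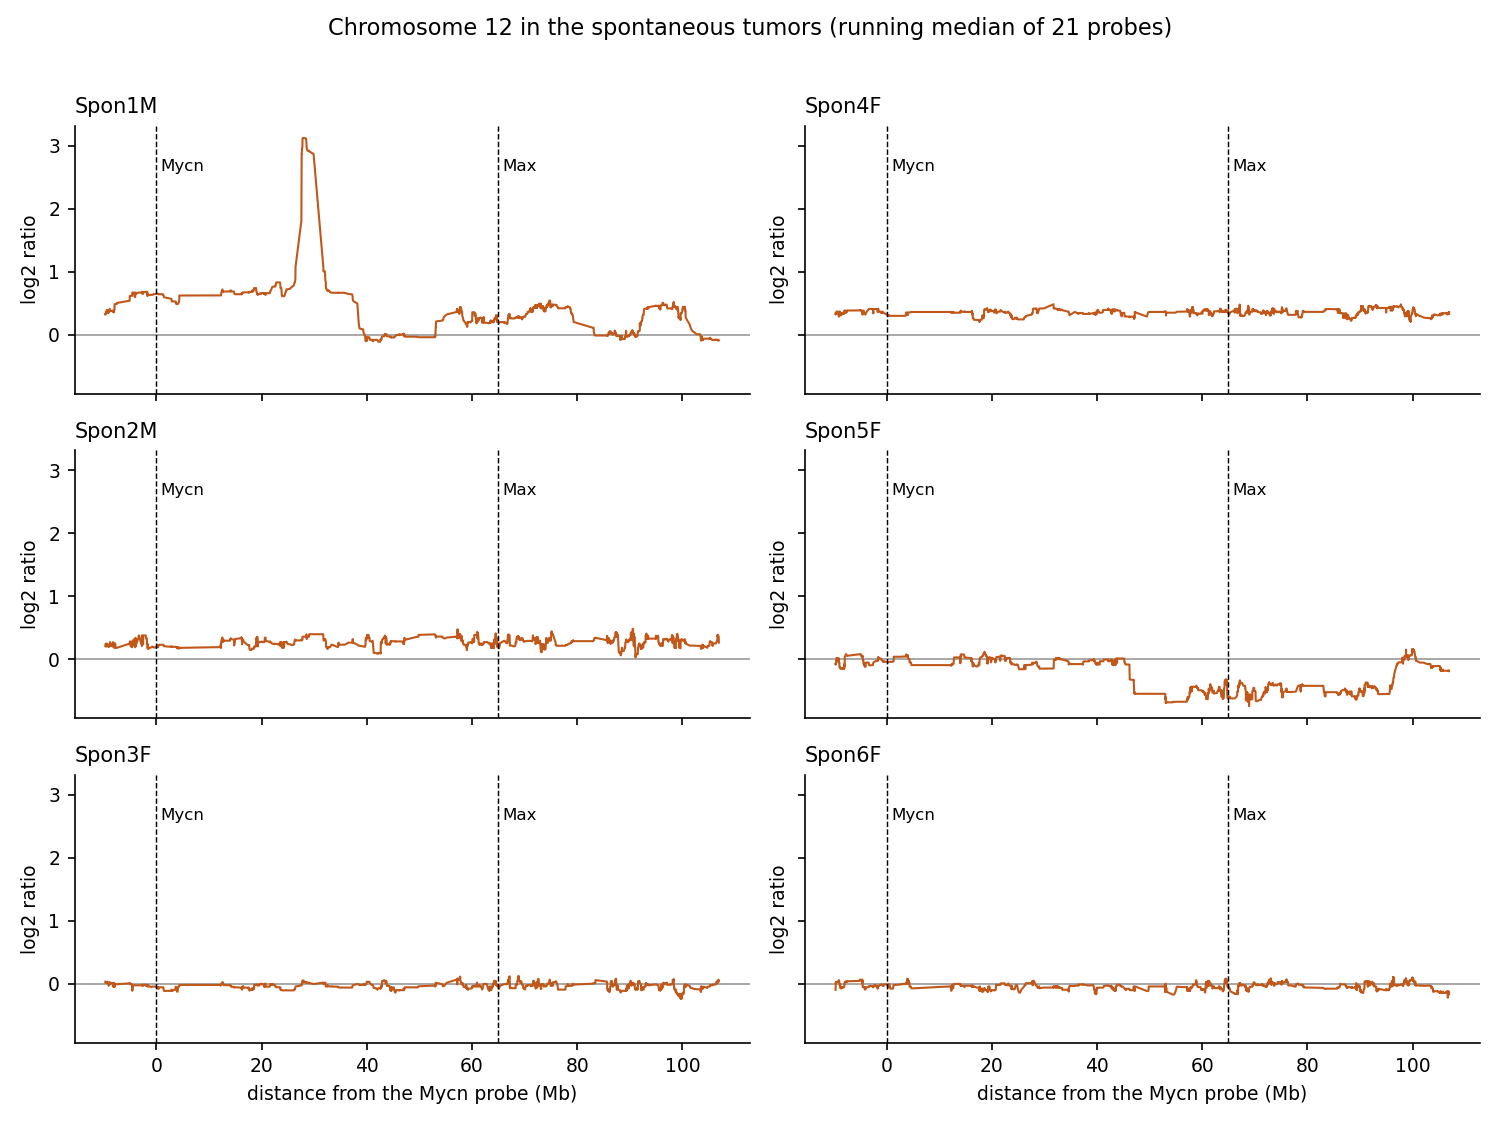
Running median of the log2 ratio over 21 probes (y axis) along chromosome 12 as distance in Mb from the Mycn probe (x axis) in the 6 spontaneous tumors; dashed lines mark Mycn and Max. Spon4F and Spon2M are raised along the whole chromosome, Spon1M is raised in pieces with a peak between both genes, and Spon5F is lowered around Max but not at Mycn.

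Mycl1, the third Myc protein gene, has 1 probe at chr4:122502859-122502915. Its value ran from -0.23 in PHx5M over a median of 0.03 to 0.12 in PHx6F in the post-PHx tumors, and from -0.38 in Spon2M over -0.06 to 0.04 in Spon5F in the spontaneous ones. The groups overlapped. PHx5M was the only post-PHx tumor in which any of the 6 genes departed from 0 by 0.2 or more. These low values were those of the chromosome: in PHx5M the segment with Mycl1 held 2478 probes, chr4:3463864-154958967, at -0.23, and in Spon2M its chromosome lay within 0.0019 of the value of Mycl1. The probe of Mycl1 itself read higher than its flanks in 10 of 12 tumors, by a median of 0.24.

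Mxi1, the antagonist, has 2 probes between chr19:53375745 and 53411513. In the post-PHx tumors it stayed between -0.01 in PHx6F and 0.05 in PHx5M, with a median of 0.03. In the spontaneous tumors it ran from -0.34 in Spon2M over a median of -0.14 to 0.04 in Spon3F. Spon2M (-0.34), Spon1M (-0.19), Spon6F (-0.18) and Spon4F (-0.10) lay below every post-PHx tumor, and Spon3F and Spon5F lay within their range. Here too the chromosome moved with the gene, since Mxi1 lay within 0.08 of the median of its chromosome in all 12 tumors.

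Mga has 3 probes between chr2:119618010 and 119656493. It ran from -0.12 in PHx5M over a median of -0.01 to 0.01 in PHx4M in the post-PHx tumors, and from -0.11 in Spon4F over -0.05 to 0.31 in Spon5F in the spontaneous ones. Spon5F stood alone, and the next value was 0.01 in Spon6F. In Spon5F Mga was 89th from the top of 20464 genes, in a segment of 2811 probes (chr2:34682752-181797594) at 0.22. The same tumor thus held the lowest Max and the highest Mga.

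Whether a gene's own probes moved apart from their surroundings was tested for genes with 2 or more own probes, 11155 in all, as own minus flanking probes over the 12 tumors (limma, Benjamini-Hochberg adjustment). Mxi1 lay below its flanks by -0.14 on the log2 scale (95% interval -0.20 to -0.07, adjusted p = 0.0050, lower in 11 of 12 tumors). Mga lay above its flanks by 0.09 (0.03 to 0.15, adjusted p = 0.043, higher in 10 of 12). Max differed by 0.01 (-0.06 to 0.08, adjusted p = 0.83). So 2 of 3 testable genes passed, where 23.3% of all genes tested did. A lasting effect of a probe would also give the same sign on every array, and this test cannot tell it from a copy difference. The call for Mga was lost when PHx1M, PHx4M, PHx6F, Spon1M, Spon3F, Spon4F, Spon5F or Spon6F was left out, with adjusted p-values from 0.063 to 0.088 (limma), and that for Mxi1 was kept without any one tumor. With 5 flanking probes a side the difference for Mga was 0.04 (limma adjusted p = 0.30), with 20 it was 0.08 (0.051), and after normexp background correction 0.18 (5.1e-05). The 3 probes of Mga were not alike, since the middle one read below 0 in every tumor but Spon5F while the outer ones read above 0 in all 12.

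The study set tumors that arose after partial hepatectomy against spontaneous ones. None of the 6 genes differed between the groups with limma after adjustment over 20464 genes, and nor did any other gene (0.0% called). Without adjustment 1302 genes had a p under 0.05, Mxi1 among them. Mxi1 was higher in the post-PHx tumors, at 0.03 ± 0.03 against -0.12 ± 0.15 (mean ± SD, n = 6 each), a difference of 0.15 (95% interval 0.02 to 0.28, limma adjusted p = 0.68). Mycn stood at -0.04 ± 0.02 against 0.17 ± 0.27, a difference of -0.21 (-0.43 to 0.01, limma adjusted p = 0.86). Myc stood at 0.03 ± 0.04 against 0.42 ± 0.85, a difference of -0.39 (-1.04 to 0.27, limma adjusted p = 0.98), which was -0.05 without Spon1M. The differences were 0.11 for Mycl1 (-0.05 to 0.27), -0.03 for Max (-0.31 to 0.25) and -0.03 for Mga (-0.17 to 0.11), with adjusted p-values of 0.98, 0.99 and 0.98 (limma).

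For 5 of the 6 genes the SD of the spontaneous tumors was at least 3.27 times that of the post-PHx tumors, and for Mycl1 it was 1.21 times. The same ratio over all genes was not taken. All genes also lay further from 0 in the spontaneous tumors, with a median absolute log2 ratio of 0.070 against 0.038. Over the 6 genes it was 0.107 against 0.035. Against 0, none of the 6 genes passed with limma in the post-PHx tumors (0.0% of all genes called, 1410 genes with an unadjusted p under 0.05) or in the spontaneous ones (0.0% called, 3382 genes). The fit shared the spread of each gene between the groups, so for the 6 genes the post-PHx p-values also carry the wider spontaneous spread. Without Spon5F, 604 genes passed against 0 in the spontaneous tumors, none of the 6 among them. Within slide 2, the means of the 2 post-PHx and 2 spontaneous tumors were 0.03 and 0.03 for Myc, -0.04 and -0.04 for Mycn, and -0.05 and -0.01 for Mycl1. They were -0.03 and -0.34 for Max, 0.02 and -0.07 for Mxi1, and -0.06 and 0.16 for Mga. With slide as a fixed block or slide 2 alone the directions for Mycn, Mycl1 and Max turned. Only slide 2 holds both groups, so these 2 settings give the same difference from the same tumors. With slide as a random block no direction turned.

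**Figure D4:**
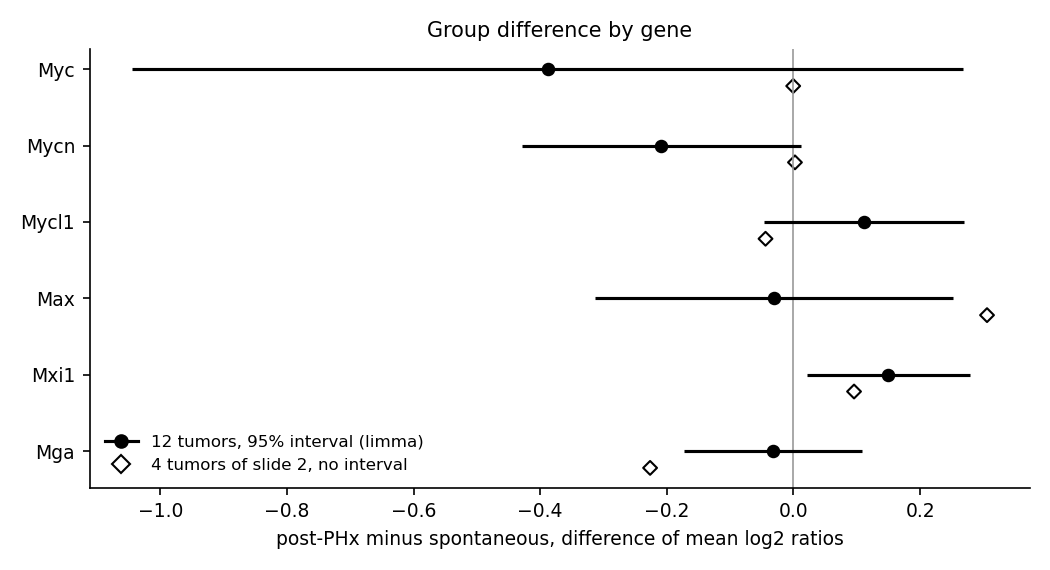
Difference of mean log2 ratios, post-PHx minus spontaneous (x axis), for the 6 genes (y axis), over 12 tumors with the 95% interval from limma (dots and lines) and for the 4 tumors of slide 2 alone (diamonds). Only the interval of Mxi1, 0.02 to 0.28, leaves out 0, and no gene passed the adjusted threshold.

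Other genes of the network were taken from 3 lists, of which 38 of 41 genes were found under their names or older names (Mxd1, Mycbp2 and Fbl were not analysed here). None of the 38 passed the adjusted threshold between the groups or against 0 in either group, as for all genes. Of the 6 measured genes of the other Max and Mlx partners (Mnt, Mxd3, Mxd4, Mlx, Mlxip and Mlxipl, among them repressors and glucose sensors), none reached 0.4 in either direction in any tumor. That is 0 of 72 pairs, against 1.87% with a gain and 1.01% with a loss over all genes. At such shares few of 72 pairs of any genes would reach it. Their differences between the groups ran from -0.01 to 0.08, with a median of 0.02, against 0.01 over all genes.

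Of 19 cofactors and turnover factors of Myc, 7 reached 0.4 in at least 1 tumor, in 8 gains and 1 loss among 228 pairs. That is 3.51% and 0.439% of the pairs, against 1.87% and 1.01% over all genes. The share of all genes that reach 0.4 in at least 1 tumor was not taken, here or for the other lists. Skp2, a ubiquitin ligase subunit that acts on Myc, stood at 0.63 in PHx4M and 0.41 in PHx2F; it lies on the same chromosome as Myc, which stood at 0.11 and 0.03 in these tumors. PHx4M also held gains of Huwe1, another ubiquitin ligase for Myc proteins, at 0.58 and of Aurka, a kinase that stabilises the Mycn protein, at 0.57. In Spon1M, the tumor with the Myc amplification, Usp28, a deubiquitinase that stabilises Myc, stood at 0.63 and Sin3a, the corepressor that Mxi1 recruits, at 0.57. Both lie on chromosome 9. Bin1, a Myc-interacting adaptor, stood at 0.77 in PHx2F and 0.54 in Spon1M. Zbtb17 (Miz-1), through which Myc represses genes, was the 1 loss, at -0.42 in Spon1M. It was lower in the spontaneous tumors, at -0.27 ± 0.14 against -0.09 ± 0.09 (SD, n = 6 each), which did not pass (limma adjusted p = 0.68).

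Of 13 target genes of Myc, 2 reached 0.4 in at least 1 tumor, in 2 gains and 1 loss among 156 pairs. That is 1.28% and 0.641% of the pairs, against 1.87% and 1.01% over all genes. With so few pairs this gap cannot be read as a difference. Odc1, the first enzyme of polyamine synthesis, on chromosome 12 like Mycn, stood at 0.60 in Spon1M and at 0.44 in PHx3M, where Mycn stood at -0.04. Cdk4, the cell cycle kinase, has 1 own probe and stood at -0.50 in Spon3F. That array held 634 probes at -2 or lower, and whether such probes lowered this mean was not tested. The median difference between the groups was 0.03 over cofactors and 0.04 over targets, against 0.01 over all genes.

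**Figure D5:**
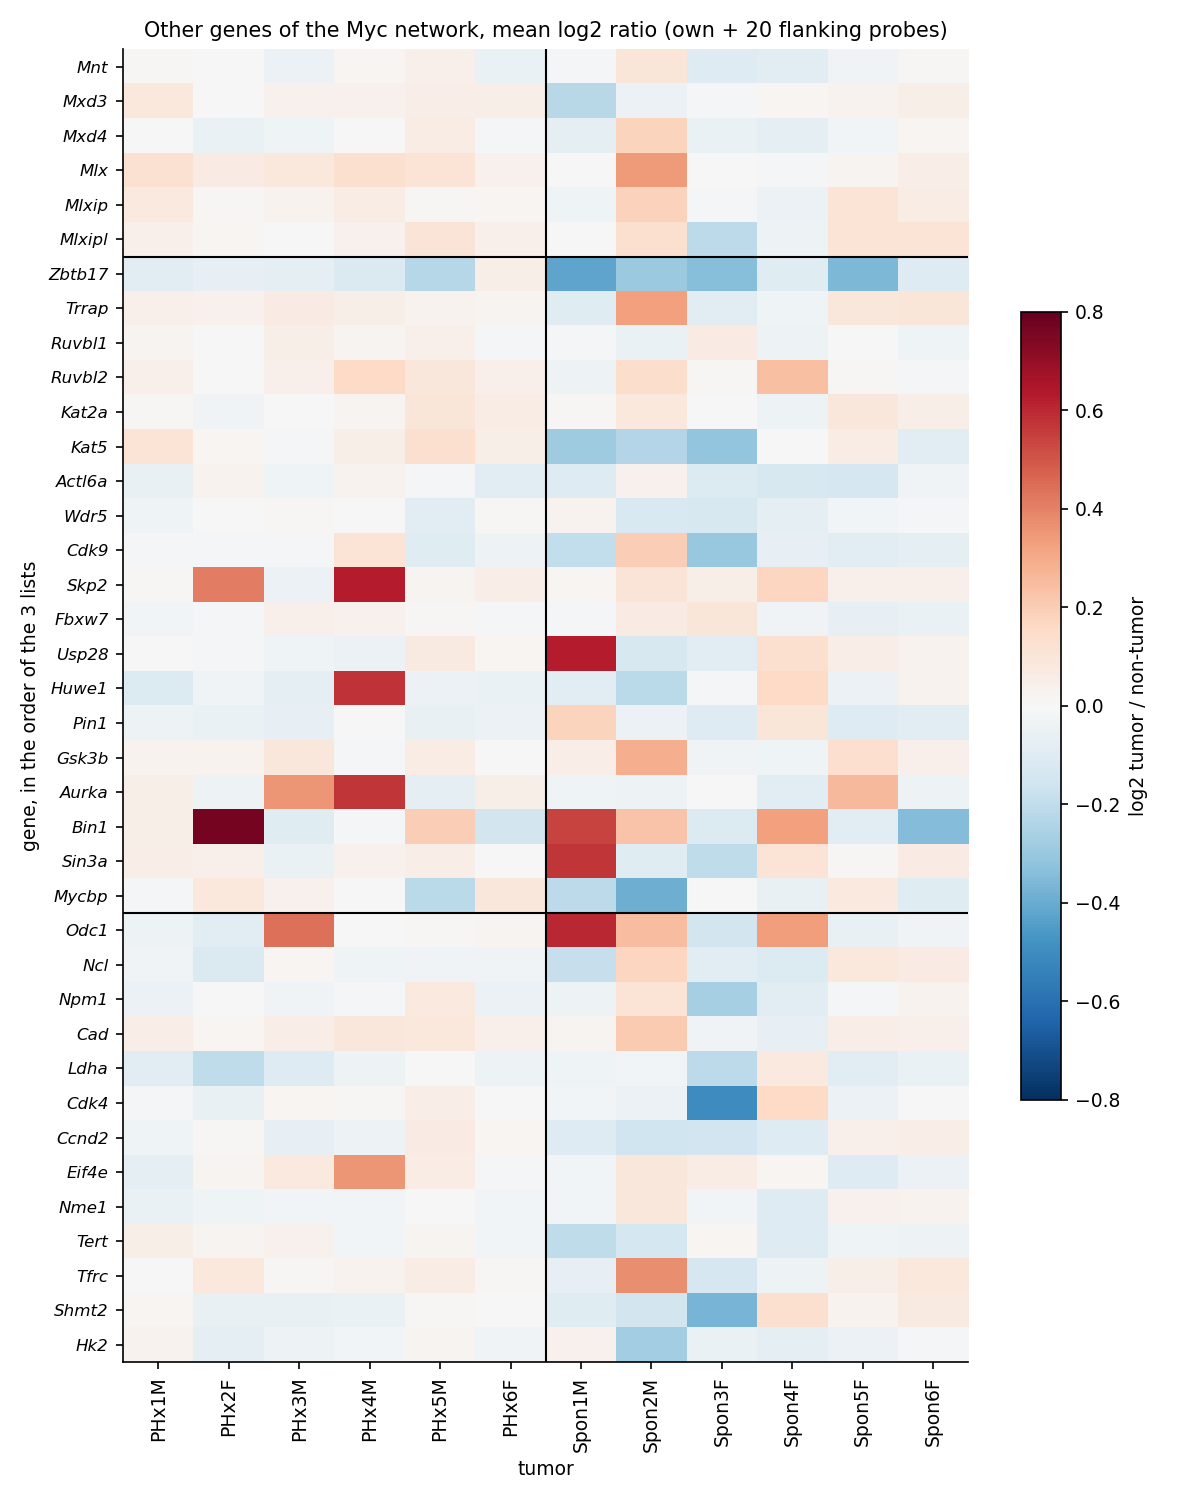
Mean log2 ratio (colour, blue below 0 and red above) of 38 other genes of the Myc network (y axis, 3 lists parted by lines: other Max and Mlx partners, cofactors and turnover, targets) in 12 tumors (x axis; post-PHx left of the line, spontaneous right). The strongest gains are Bin1 in PHx2F (0.77), Skp2 in PHx4M (0.63) and Usp28 in Spon1M (0.63). The lowest value is Cdk4 in Spon3F (-0.50), an array with scattered low single probes.

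The neighbours of the 6 genes showed how far each value was shared. AK043790, the next name after Myc at a distance of 148 kb, read 3.22 in Spon1M and 0.08 in Spon3F, while AK015045, 1047 kb before Myc, read 0.66 and -0.19. Fntb and Fut8 on both sides of Max read -0.67 and -0.59 in Spon5F. BC078639 and Mapkbp1 on both sides of Mga read 0.43 and 0.51 in Spon5F. AK015836 and AK017761 on both sides of Mycn read 0.63 and 0.50 in Spon1M. Mfsd2 and Trit1 beside Mycl1 read -0.26 and -0.33 in Spon2M, and AK005607 and Smndc1 beside Mxi1 read -0.33 and -0.19.

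Over the 12 tumors, the genes on other chromosomes whose values ran most like those of Myc were AK016351 and Dock4 (Pearson r = 0.99 for both, a description in which Spon1M carries most of the spread). They lie on chromosome 12 in the 28 probes that stood at 2.96 in Spon1M, and their own values there were 2.98 and 3.07. The closest to Mycn were AK041996 and Pstpip1 on chromosome 9 (r = 0.99 for both), at 0.47 and 0.46 in Spon1M. For Max they were Esco2 and Gulo on chromosome 14 (r = 0.90 for both), at -0.51 and -0.48 in Spon5F. For Mycl1 they were Fads2 and Fads1 on chromosome 19 (r = 0.85 and 0.84), for Mxi1 AK028085 and Gata2 on chromosome 6 (0.90 and 0.89), and for Mga AK147443 and Sost (0.76 for both). An r over 0.90 was shared by many genes on other chromosomes: 404 for Myc, 342 for Mycn and 4 for Max. It was reached by 0 such genes for Mycl1, Mxi1 and Mga. The named genes are thus not particular to Myc or Mycn. All these points share the same arrays, and genes of 1 chromosome are not independent.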

How the data were processed

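DNA of 12 tumors and of the matched non-tumor livers was hybridized to 2-colour Agilent mouse arrays, 1 array per tumor. Per the file headers, the files the authors deposited are output of Feature Extraction 10.5.1.1, with probe positions on build mm8 (NCBI36). The deposited log10 ratio of each spot, red (tumor) over green (non-tumor liver), and its error were made by that software from background-subtracted, dye-scaled signals. The deposited signal intensities (processed, mean and background) served for the alternative background correction and for signals over background. Deposited outlier and background marks were used as filters.

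Ratios were multiplied to the log2 scale, control spots, outlier spots and unplaced probes were dropped, spots of a probe averaged and arrays centred on their autosomal median, with no loess. A gene's value was the mean over its own probes and 10 flanking probes on each side. Names made of coordinates only (6107), names on several chromosomes (58) and names spanning over 5 Mb (2) were left out. Groups came from the sample labels. One limma fit of 12 tumors (limma 3.58.1, lmFit and eBayes, Benjamini-Hochberg over all genes, threshold 0.05) gave the group means and their difference, and a second fit gave own minus flanking probes. The study describes each group as 6 mice, so p-values measure the spread between tumors of separate mice on 1 array each. In the first fit this spread was shared by both groups. The number of arrays limits the precision. Regions were called by a recursive error-weighted interval score (threshold 6, at least 2 probes, absolute mean log2 ratio of at least 0.4), and a gene was in a region that covered at least 50% of its own probes. The fit and the caller were tested on simulated data. In the simulation of the fit each gene had the same spread in both groups, unlike most of the 6 genes.

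The 6 genes and the 3 lists were chosen with earlier results of these data known. The text names all 6 genes, of the lists each gene past the adjusted threshold or at an absolute log2 ratio of 0.4 in any tumor (up to 10, by size), for each of the 6 the nearest other name on both sides, and the 2 genes on other chromosomes with the highest Pearson r. Genes of the Myc region in Spon1M, the probe AK016931 in PHx4M and the probes low on Spon3F were named after their values were seen. Alternatives were normexp background correction (offset 50), no centring or centring on the mode, 5 or 20 flanking probes, own probes only, probes well above background only, the median over probes, tumor number, sex or slide as a term, robust eBayes, slide 2 alone, other filters (0.25 and 0.6), score thresholds (5, 8 and 10), equal weights, at least 5 probes and each tumor left out in turn.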

Additional observations from a re-analysis of the deposited data

Results flagged for a closer look

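Each of the 6 genes was examined in both groups of 6 tumors for a tumor whose gap to the nearest other exceeded Dixon's 95% critical value. Of 12 such groups 2 were marked. The critical value marks about 1 in 20 groups of independent, normally distributed values. These groups share arrays, and the share marked over all genes was not taken, so no excess can be read from 2 of 12. Myc in Spon1M, at 2.13 against 0.24 in Spon4F, took up 0.84 of the range of the spontaneous tumors. Mga in Spon5F, at 0.31 against 0.01 in Spon6F, took up 0.70 of it.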

How the results depend on the processing

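No member passed between the groups or against 0 under any of the alternatives or with any tumor left out (0 in each), except that Mxi1 passed against 0 in the spontaneous tumors when own probes only were used (1 gene). Over all 20464 genes, the 0 calls against 0 in the spontaneous tumors became 304 with centring on the mode, 804 after normexp, 848 with own probes only, 1187 with sex as a covariate, 672 with slide as a random block and 604 without Spon5F. The 0 calls in the post-PHx tumors became 540 with own probes only and 5 after normexp. The 2601 genes whose own probes differed from their flanks became 5024 after normexp. The tumor numbers 1 to 6 occur in both groups. Same-numbered tumors correlated between -0.17 and 0.55 in their deviations, over 0.1 for 1 of 6 numbers. That was number 6, PHx6F and Spon6F on slide 2, while number 5, PHx5M and Spon5F on the same slide, stood at -0.17. With the number as a replicate block 0 members differed. A random block for slide had a correlation of -0.05 and 0 members differed.

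Pairs with a gain numbered 9 with own probes only, 6 at a filter of 0.25, and 0 to 2 with single tumors left out. Pairs with a loss numbered 2 after normexp, with 5 flanking probes or with the median over probes, 3 with own probes only (Myc in Spon3F and Mycl1 in Spon2M added), 3 at 0.25, and 0 to 1 with single tumors left out. Pairs in an amplified region numbered 7 at 0.25 and 0 to 2 with single tumors left out. Pairs in a deleted region numbered 2 after normexp or without centring (Mxi1 in Spon2M added), 4 at 0.25, 0 at 0.6, and 0 to 1 with single tumors left out. In the main setting the gains and amplified regions were all in Spon1M, and the loss and the deleted region in Spon5F. With own probes only, gains were also seen in Spon2M, Spon4F, Spon5F and PHx3M. At a filter of 0.25 they were also seen in Spon2M, Spon4F and Spon5F. Without Spon1M, Spon2M and Spon3F, chosen after seeing the data, there were 0 gains and 0 amplified regions. Members whose own probes differed from their flanks numbered 1 with 5 or 20 flanking probes, and 1 to 2 with single tumors left out.

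Directions between the groups turned in a few settings, none past the threshold. With slide as a fixed block and with slide 2 alone the difference was 0.0024 for Mycn, -0.044 for Mycl1 and 0.31 for Max. Both settings rest on the tumors of slide 2, so they count as 1 estimate. The spontaneous tumors of that slide stood at -0.60 (Spon5F) and -0.07 (Spon6F) for Max. The difference for Max was 0.11 without Spon1M, Spon2M and Spon3F, and -0.16 to 0.035 with single tumors left out. For Mga it was -0.055 to 0.030 with single tumors left out. Max minus its flanks was -0.0078 with 20 flanking probes, -0.017 without Spon1M, Spon2M and Spon3F, and -0.0079 to 0.031 with single tumors left out. The causes of these changes were not tested. Signal over background and the tumor share of the tissue limit how small a shift can be seen.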

Other observations

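The array also holds 1 probe named Mycs, a retrotransposed Myc-like gene on the X chromosome, chosen here after its name was seen. Its mean log2 ratio ran from -0.11 in PHx1M to 0.17 in Spon4F, and it stood at -0.03 in Spon1M.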
